A study of Mus musculus with 9 samples.

Results

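The protein-coding transcriptome of LPS-treated RAW264.7 cells transfected with RAB6A siRNA was compared with that of cells transfected with a control siRNA (NC). RAW264.7 is a macrophage-like mouse line. Each group holds 3 libraries of mRNA, and 3 further libraries of the series, transfected with SFRP2 siRNA, are given beside them where stated. By the labels, all 9 cultures received 60 nM siRNA for 6 h, 12 h of complete medium and then 100 ng/ml LPS for 24 h, so that the control is an LPS-treated and transfected culture and untreated cells are not part of the comparison. The sample titles also carry 6H, and the labels do not say which step this names. The paper's methods give another siRNA dose, reagent and medium and add IFN-γ, and the paper does not describe the RAB6A siRNA group. Genes were chosen by level alone. Of 28137 identifiers in the table, 12712 had a mean FPKM (fragments per kilobase of gene, scaled to the depth of the library) of at least 0.5 over the 6 libraries, and the 10150 of them that are protein-coding are described here. A further 6744 protein-coding genes did not pass this level. The labels do not say whether the 3 libraries of a group came from separate cultures, so that p-values measure the spread between these libraries only.

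RAB6A is a small GTPase of the Golgi apparatus. In its GTP-bound form it recruits motor adaptors, golgins and tethers that carry vesicles from the Golgi to the cell surface and back to the endoplasmic reticulum, and in macrophages this route also carries newly made cytokines and receptors. LPS is sensed by Tlr4 with Cd14 and Ly96, and its adaptors Myd88 and Ticam1 lead to NF-kB, MAP kinases and interferon-regulatory factors, which induce cytokines, chemokines and interferon-stimulated genes. The sense strand of the control siRNA is shown because it defines the reference condition, in lower case.
NC, 5′ to 3′, without its 2 overhanging deoxythymidines: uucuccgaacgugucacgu
The sequence of the RAB6A siRNA is not given in the sources used here.

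Depth was 41608388 to 47149282 reads per library in NC and 32758736 to 37833892 in the RAB6A siRNA libraries, as implied by the smallest steps of the FPKM values. Protein-coding genes held 96.99 to 97.1% of reads in NC and 95.9 to 96.2% in the RAB6A siRNA libraries, and the 10 most abundant genes 13.9 to 15.7% and 18.8 to 19.4%. Of 12 macrophage markers 11 had a mean FPKM of at least 1, and their summed FPKM was 5186 to 5703 in NC and 4864 to 5160 in the RAB6A siRNA libraries. Mertk was the macrophage marker under this level. Summed markers of fibroblasts, epithelium, B cells, neutrophils, endothelium and dendritic cells reached at most 4.07 FPKM in the NC and RAB6A siRNA libraries, the value of fibroblasts in a RAB6A siRNA library, and those of T cells, carried by Lck, were at 6.03 to 6.904 in NC and 2.87 to 3.37 in the RAB6A siRNA libraries. Their part in the results was not tested. In a bulk culture, fewer cells that express a gene and less RNA per cell cannot be told apart.

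Rab6a (ENSMUSG00000030704, chr7:100607410-100641268, + strand of GRCm38) was reduced to a small extent. Its FPKM was 24.3, 27.3 and 25.5 in the NC libraries, 26.6, 28.6 and 25.8 in the SFRP2 siRNA libraries and 21.2, 20.7 and 20.4 in the RAB6A siRNA libraries. All 3 RAB6A siRNA libraries lay below all 6 others. The group means were 25.7 ± 1.48 and 20.7 ± 0.445 (SD, n = 3 each), for which limma gave -0.31 on the log2 scale with an SE of 0.06 (adjusted p = 0.0024), a ratio of means of 0.808. An exact two-sided permutation test gave p = 0.1, the smallest that 3 libraries against 3 allow. Against SFRP2 siRNA the difference was -0.38 on the log2 scale (SE 0.0588, adjusted p = 0.00085). The decrease did not hold when each library's dependence on GC content and gene length was removed (0.018, adjusted p = 0.793), and it was -0.18 after quantile normalization. 7131 of the 10150 protein-coding genes (70.3%) differed from NC by more than Rab6a did. Rab6a overlaps Mrpl48 on the opposite strand (log2 fold change 0.62) and the processed pseudogene Gm14382 on the same strand. The strand setting is not given, and reads in the shared stretches cannot be told apart. The part of these reads in the value of Rab6a was not tested. The labels are used as given throughout.

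**Figure D1:**
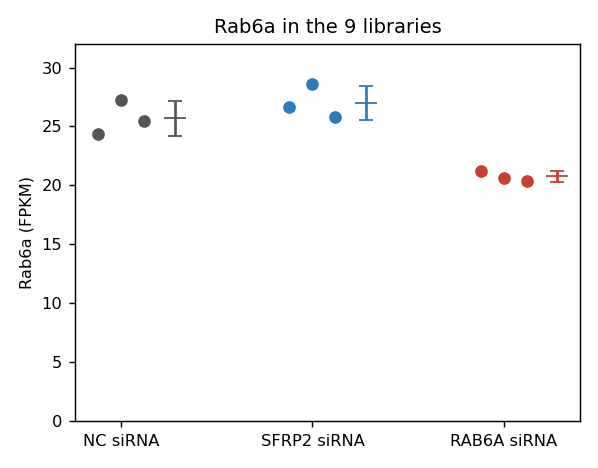
FPKM of Rab6a (y axis, from 0) in each of the 3 NC siRNA, 3 SFRP2 siRNA and 3 RAB6A siRNA libraries (points), with the mean and SD of each group (bar at the right of the points). The RAB6A siRNA libraries lie between 20.4 and 21.2, below the lowest NC library at 24.3.

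Most of the transcriptome differed between the groups. At an adjusted p under 0.05 from limma, 74.1% of all genes tested and 75.5% of the protein-coding genes were called, 33.8% of the latter as higher and 41.7% as lower in the RAB6A siRNA libraries. Differentially expressed genes (DEGs) additionally needed an absolute log2 fold change over 1. This left 2489 protein-coding DEGs, 1101 higher (10.8%) and 1388 lower (13.7%). In 79.5% of the protein-coding genes the 3 libraries of one group all lay above the 3 of the other, and this held for 2486 of the 2489 DEGs. Every group of genes is read against these shares. The median log2 fold change was -0.069, with quartiles of -0.63 and 0.47, against a median SD between replicates of 0.106 on the same scale. The balance of directions depended on the processing. 44.2% of protein-coding DEGs were higher as deposited, 54.7% after the correction for GC content and length and 37.2% after quantile normalization. The correction for GC content and length also moved the median of the protein-coding genes to 0.068. Against the SFRP2 siRNA libraries, which were not used in the fit above, 10154 protein-coding genes were tested and 11.9% were DEGs higher and 14.0% DEGs lower in the RAB6A siRNA libraries. Both comparisons share the RAB6A siRNA libraries. Below, 3 values of a group are its libraries 1 to 3, and a pair such as x to y FPKM gives the means of the NC and the RAB6A siRNA libraries (n = 3 each). Fold changes are on the scale of log2(FPKM + 0.1), which understates the change of low genes, and a gene is said to rise or fall only at an adjusted p under 0.05. A gene with a mean under 0.5 FPKM in 1 group passed the filter through the other group alone. The direction of such a gene was fixed by the filter.

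**Figure D2:**
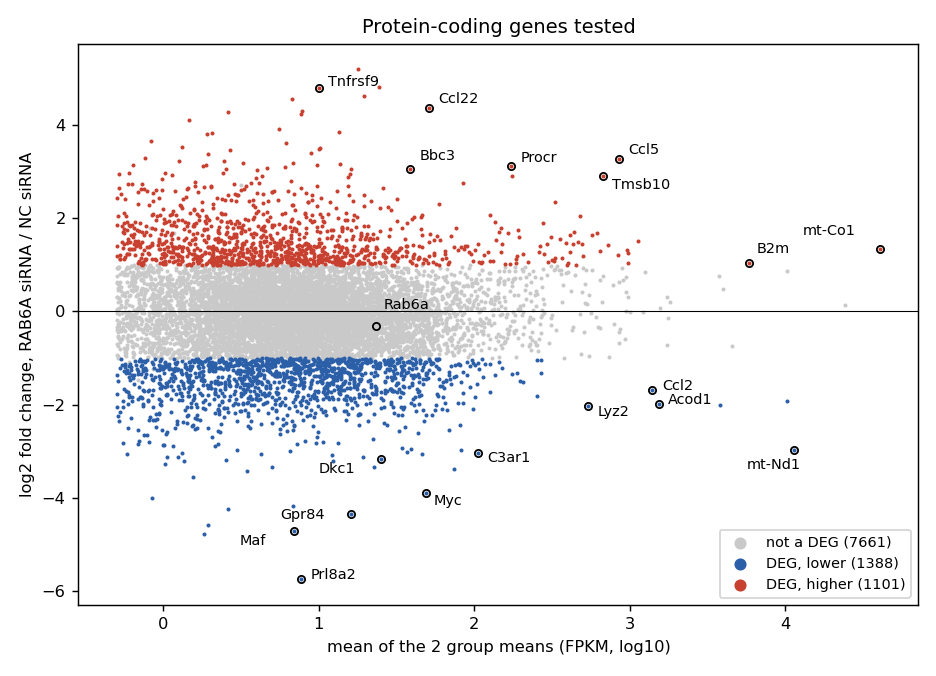
Each point is a protein-coding gene tested, with the mean of the group means on the x axis (FPKM, log10) and the log2 fold change of RAB6A siRNA over NC siRNA on the y axis. The 1101 DEGs higher are red, the 1388 DEGs lower blue and the others grey, and named genes are circled. Most circled genes lie far outside the grey band, whereas Rab6a lies inside it at -0.31.

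Among well-expressed genes the largest decreases were found in a transcription factor of macrophages, in surface receptors and in Myc. Maf, a transcription factor of macrophage differentiation, had an FPKM of 13.9, 15.2 and 11.5 in NC and 0.364, 0.401 and 0.5 in the RAB6A siRNA libraries. Gpr84, a receptor for medium-chain fatty acids, fell from 29.9, 31.05 and 31.2 to 1.196, 1.62 and 1.42 FPKM. Myc, the growth-promoting transcription factor, was at 92.99, 90.9 and 92.5 in NC and 6.32, 6.16 and 5.76 in the RAB6A siRNA libraries, for which limma gave -3.901 on the log2 scale with an SE of 0.056 (adjusted p = 1.55e-07). None of these groups overlapped, and the SFRP2 siRNA libraries lay close to NC (15.99, 29.04 and 95.4 FPKM on average). Prl8a2, a prolactin-family gene that macrophages are not known for, had the lowest fold change of all (log2 fold change -5.75) but varied within NC, with 23.01, 10.8 and 11.9 FPKM. The other 16 of the 20 largest decreases lay between -4.17 and -2.84. They held the Toll-like receptors Tlr13 and Tlr7 and the related Cd180, the complement receptor C3ar1, the inflammasome sensor Nlrp3, the interferon-inducible Tgtp2 and Slfn9, the pseudouridine synthase Dkc1, the RNA helicase Ddx3x, the cyclin Ccne2, the vasoconstrictor peptide Edn1, the serotonin transporter Slc6a4, the mitochondrially encoded mt-Nd1, and Tm4sf19, Kctd12 and Tmem185b. Dkc1, for example, had 48.3, 45.1 and 43.2 FPKM in NC and 4.55, 4.503 and 6.01 in the RAB6A siRNA libraries, and Ddx3x 153, 145 and 140.5 and 17.2, 18.2 and 20.3. No RAB6A siRNA library reached the lowest NC library in any of these 20 genes, as the rule that chose them required. Cd180, Dkc1, Tgtp2 and Ccne2 overlap the protein-coding genes Mast4, Mpp1, Olfr56 and Ints8 on the opposite strand and Gpr84, Edn1, Slc6a4 and Tmem185b an antisense gene. Reads in the shared stretches cannot be told apart from those of the partner. Dkc1 and Mpp1 overlap only at their ends.

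The largest increases held chemokines, receptors and genes of growth arrest. Ccl22, a chemokine that attracts regulatory T cells, had an FPKM of 4.59, 4.81 and 4.52 in NC and 106, 88.7 and 99.9 in the RAB6A siRNA libraries, for which limma gave 4.37 on the log2 scale with an SE of 0.076 (adjusted p = 3.43e-07). Ccl5, a T-cell and monocyte attractant, rose from 142, 165 and 169.8 to 1779, 1644 and 1252 FPKM. Tnfrsf9 (4-1BB), a costimulatory receptor, went from 0.653, 0.452 and 0.743 to 20.7, 19.1 and 18.7 FPKM, and Procr, the endothelial protein C receptor, from 36.2, 34.1 and 36.2 to 326, 301 and 299. Every RAB6A siRNA library lay above every NC library in these 4 genes, as the rule that chose them required, and they were between 8.71-fold and 31.7-fold higher by the ratio of the means. Trp53inp1, a p53-induced regulator of autophagy and cell death, rose from 0.659 to 14.9, the cytokine Il11 from 0.615 to 10.5, Gadd45g, a growth-arrest gene, from 0.844 to 11.4, and the actin-binding leukocyte protein Lsp1 from 1.46 to 16.4 FPKM. Heatr9, which lies 3603 bases from Ccl5 on the same strand of chromosome 11, had a log2 fold change of 4.56 beside 3.28 for Ccl5. Gm17622 and Gm13199 overlap Polk and Nudt5 on the opposite strand, and since the strand setting is not given, their reads cannot be told apart from those of the partner. Polk had a log2 fold change of 1.52. Tnfrsf9, Cox6a2 and Nnat also overlap a protein-coding gene on the opposite strand (Camta1, Itgad and Blcap), and Lsp1 a noncoding gene. Other genes named here have such partners too, Rab6a, B2m and Csf1r among them, and the same holds for their reads where the genes overlap. Hamp, which encodes hepcidin, rested on low and scattered NC values (0.117, 1.03 and 1.61). Among the other genes of this group of 20, Ypel3, Rhov, Fam71f2, Glipr2 and Cd5 had log2 fold changes between 3.15 and 3.86.

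By the difference in FPKM, a measure relative to the depth of the library, the largest shifts were found in mitochondrial genes and other abundant transcripts. The largest increases in FPKM were those of mt-Co1 (23214 to 58700 FPKM), the osteopontin gene Spp1 (7326 to 13384 FPKM), B2m, the light chain of MHC class I (3841 to 7925 FPKM), the elongation factor Eef1a1 (2791 to 4753 FPKM), Ccl5, the ferritin heavy chain Fth1 (3325 to 4626 FPKM), the thymosin Tmsb10 (157 to 1186 FPKM) and the ribosomal protein genes Rps15, Rps26 and Rpl32. The largest decreases were those of mt-Nd1 (20209 to 2574 FPKM), mt-Cytb (16352 to 4307 FPKM), mt-Nd2, mt-Nd5 and mt-Nd4, the itaconate synthase Acod1 (2458 to 624 FPKM), the monocyte attractant Ccl2 (2142 to 664 FPKM), the lysozyme Lyz2 (872 to 214 FPKM), the annexin Anxa5 (979 to 500.1 FPKM) and the cytokine Tnf (1050 to 659 FPKM). For Acod1 the libraries read 2422, 2422 and 2530 in NC and 629, 625 and 619 after RAB6A siRNA, and for Lyz2 869, 850.1 and 898 and 206, 239 and 196. The groups did not overlap in either gene, and the spread within a group was a small part of the difference. Spp1, Eef1a1, Fth1, mt-Co1 and mt-Nd5 were no longer called with no filter on low values.

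**Figure D3:**
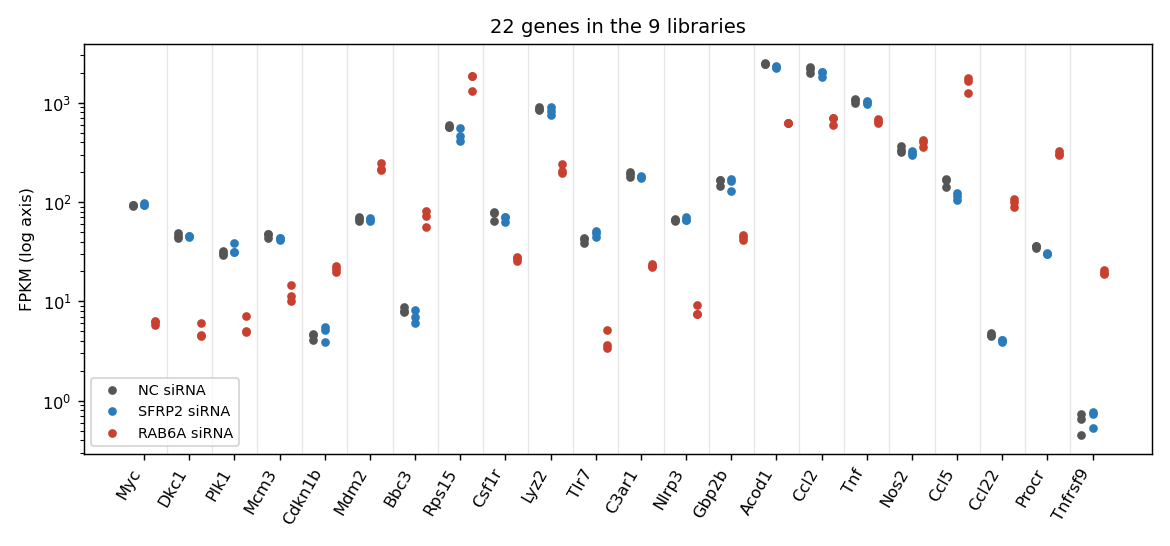
FPKM (y axis, log scale) of 22 genes named in the text in each NC siRNA (grey), SFRP2 siRNA (blue) and RAB6A siRNA (red) library, 3 points a group. The SFRP2 siRNA points lie near the NC points, whereas the RAB6A siRNA points lie apart for all of these genes but Nos2, at 340.1 and 392 FPKM on average.

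The partners of Rab6 had a median change close to 0 as deposited. In the list of Rab6 genes and their effectors and regulators, 34 members were tested, of which 8 were higher and 12 lower (17 and 9 after the correction for GC content and length), against a background of 33.8% and 41.7%, and the median log2 fold change was 0.001 (-0.025 in a fit on recovered reads and -0.018 after quantile normalization, but 0.20 after the correction for GC content and length). The largest decrease was that of Kif20a, a Golgi-associated kinesin that also acts in cytokinesis. It had 14.04, 14.2 and 14.5 FPKM in NC and 1.503, 1.77 and 2.93 in the RAB6A siRNA libraries, and it is at the same time a member of the mitosis list. The kinesin heavy chain Kif5b (16.4 to 9.06 FPKM, log2 fold change -0.85, SE 0.071), the active-zone scaffold Erc1 (log2 fold change -0.83) and the dynein heavy chain Dync1h1 (log2 fold change -0.61) fell to a lesser extent. Higher were Gorab, a Golgi scaffold (6.68, 6.74 and 6.62 against 15.4, 14.7 and 13.3), and the Rab exchange factor Dennd5a (7.77 to 16.4 FPKM, log2 fold change 1.07, SE 0.059). Ric1, a subunit of the exchange factor for Rab6 (4.698 to 9.47 FPKM, log2 fold change 0.996, SE 0.067), and the GTPase-activating protein Rabgap1l (0.125 to 2.52 FPKM, log2 fold change 3.54, SE 0.20) were higher as well. Rabgap1l passed the filter through the RAB6A siRNA libraries alone, so that its direction was fixed by the filter. The adaptor Bicd2, which links Rab6 vesicles to dynein, was at 13.99 and 14.98 FPKM and was not called, nor were the golgins Gcc1, Gcc2, Golga1, Golga4 and Golga5. After the correction for GC content and length Bicd2, Gcc1, Gcc2 and Golga5 were called as higher, with 0.30 to 0.45 on the log2 scale, and after quantile normalization Bicd2 and Golga5. Rab6b, the neuronal paralogue, was below the filter with at most 0.236 FPKM.

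Of 44 Rab GTPase genes tested, 14 were higher and 19 lower (16 and 14 after the correction for GC content and length), with 4 and 4 DEGs. Rab32, a Rab of lysosome-related organelles, had 6.42, 6.15 and 6.19 FPKM in NC and 1.25, 1.08 and 1.08 in the RAB6A siRNA libraries, and Rab15 16.4, 11.9 and 13.7 and 2.31, 3.38 and 2.92, so that both fell without overlap. Rab13, Rab24 and Rab40c rose with log2 fold changes of 1.23, 1.23 and 1.200. Among coat proteins and Golgi tethers, 53 members were tested, of which 19 were higher and 22 lower (28 and 12 after the correction for GC content and length and 23 and 17 after quantile normalization), with 3 DEGs higher and 0 lower. The 3 DEGs were Golgb1 (giantin, 10.7 to 31.4 FPKM, log2 fold change 1.54, SE 0.079), Stx5a, a Golgi t-SNARE (4.62 to 10.2 FPKM, log2 fold change 1.13, SE 0.065), and Bet1 (2.17 to 4.55 FPKM, log2 fold change 1.05, SE 0.13). In the list of ER translocation and N-glycosylation, 50 members were tested, of which 8 were higher and 29 lower (15 and 21 after the correction for GC content and length), and the median was -0.27. The glycosyltransferase Alg2 (log2 fold change -1.44), the glucosidase Mogs (log2 fold change -1.11) and Dpagt1, which starts the lipid-linked oligosaccharide (log2 fold change -1.03), were the lowest, whereas the small translocon subunits Sec61g (log2 fold change 0.98) and Sec61b (log2 fold change 0.84) were higher. Srp54b (log2 fold change 4.11) has near-identical copies, so that its value is uncertain.

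Growth genes split into 2 opposite groups, with ribosome assembly lower and ribosomal protein mRNAs higher. Ribosome biogenesis genes act in rRNA transcription, processing and modification. Of 85 ribosome biogenesis genes tested, 5 were higher and 76 lower, with 2 and 38 DEGs, and the median was -0.97 against -0.069 for all protein-coding genes. After Dkc1, the lowest were Pwp2 of the small-subunit processome, at 11.7, 10.6 and 11.8 FPKM in NC and 2.13, 2.12 and 2.22 in the RAB6A siRNA libraries, and the assembly factor Rrs1, at 89.8, 90.3 and 84.1 and 16.99, 17.4 and 22.2. The core snoRNP protein Nop58 (23.6 to 5.302 FPKM, log2 fold change -2.13, SE 0.081) and Ubtf, a transcription factor of RNA polymerase I (26.4 to 7.19 FPKM, log2 fold change -1.86, SE 0.068), were lower as well. Exceptions were Nop53 (20.1 to 53.6 FPKM, log2 fold change 1.41, SE 0.057), Polr1d (10.4 to 24.3 FPKM, log2 fold change 1.22, SE 0.15) and Utp11 (log2 fold change 0.66), which rose. Cytosolic ribosomal proteins went the other way. Of 83 cytosolic ribosomal protein genes tested, 77 were higher and 1 lower, with 49 and 0 DEGs, with a median of 1.09, and their share of all reads was 2.65 to 2.73% in NC, 2.31 to 2.57% in the SFRP2 siRNA libraries and 4.96 to 5.77% in the RAB6A siRNA libraries. Rpl28 had 199.6, 203 and 215 FPKM in NC and 716, 679 and 615 in the RAB6A siRNA libraries, and Rpl36 289, 289 and 296 and 1022, 1024 and 801. Rpl7l1, a ribosome biogenesis factor by function, was the single member that fell (log2 fold change -0.86). Ribosomal protein genes have many processed pseudogenes, and reads shared with them can have been counted for either, so single values in this family are uncertain. The opposite directions held in every scaling tried, with medians of -0.78 and 0.99 after the correction for GC content and length.

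Myc was the member of the Myc and MAX network that changed most. Of 10 members tested, 4 were higher and 3 lower. Its partner Max fell from 66.4 to 41.5 FPKM, and Mlx fell by 0.23 on the log2 scale. The antagonists Mxi1 (4.62 to 8.998 FPKM), Mxd1 (6.42 to 11.4 FPKM) and Mnt (9.88 to 14.1 FPKM) rose, as did Zbtb17 (log2 fold change 0.48). Mycn, the second Myc gene expressed in these cells, was at 67.8, 61.7 and 63.9 FPKM in NC and 66.8, 70.6 and 64.6 in the RAB6A siRNA libraries and was not called (log2 fold change 0.063, SE 0.061, adjusted p = 0.375). Polyamine synthesis, a classical Myc-regulated pathway, was uneven, with the spermidine synthase Srm falling from 91.9, 83.99 and 97.1 to 17.6, 20.8 and 24.4 FPKM and Amd1 from 20.9 to 5.69, while Odc1 was at 1523 and 1602. Among translation factors, 68 members were tested, of which 20 were higher and 34 lower. The scaffolds Eif4g2 (194 to 58.5 FPKM, log2 fold change -1.73, SE 0.085) and Eif4g1 (121 to 42.5 FPKM, log2 fold change -1.51, SE 0.064) were the lowest, and the translational repressor Eif4ebp1 (24.2 to 57.4 FPKM, log2 fold change 1.24, SE 0.065) and the eIF4E kinase Mknk2 (16.6 to 37.3 FPKM, log2 fold change 1.17, SE 0.086) were among the highest. Of 23 aminoacyl-tRNA synthetase genes tested, 1 were higher and 19 lower, with 0 and 3 DEGs, with a median of -0.55, Iars and Tars (-1.35 and -1.33 on the log2 scale) being among the lowest and Aimp1 (log2 fold change 0.31) the member that rose. Among amino acid transporters and mTORC1 genes, 48 members were tested, of which 15 were higher and 23 lower. The cationic transporter Slc7a1 (23.1 to 6.19 FPKM) and the cystine transporter Slc7a11 (13.9 to 3.68 FPKM) fell, and so did the mTOR subunit Mlst8 (5.24 to 1.26 FPKM). The arginine sensor Castor1, its relative Castor2 (3.54 to 28.2 FPKM) and the mTORC1 inhibitor Ddit4 (2.39 to 14.3 FPKM) rose.

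Genes of cell division were mostly lower. In the DNA replication list, 50 of 58 members were lower and 4 higher, with 26 DEGs lower and 0 higher and a median of -0.90. The helicase subunit Mcm3 had 47.4, 43.2 and 47.4 FPKM in NC and 9.97, 11.4 and 14.5 in the RAB6A siRNA libraries, and Mcm10 5.76, 5.26 and 5.53 and 1.02, 1.08 and 1.53. The checkpoint mediator Clspn (15.99 to 3.87 FPKM, log2 fold change -2.03, SE 0.10), the primase-polymerase Pola1 (5.87 to 1.52 FPKM, log2 fold change -1.89, SE 0.11) and the ribonucleotide reductase subunit Rrm2 (64.98 to 18.1 FPKM, log2 fold change -1.84, SE 0.09) were similar. Gins3 (log2 fold change 0.89), Orc4 (log2 fold change 0.68) and Pold3 (log2 fold change 0.31) rose. In the mitosis list, 60 of 65 were lower and 2 higher, with 44 DEGs lower and a median of -1.29. The kinase Plk1 had 29.3, 32.2 and 30.8 FPKM in NC and 5.08, 4.87 and 7.14 in the RAB6A siRNA libraries, the cyclin Ccna2 34.3, 35.3 and 34.2 and 6.15, 5.99 and 8.13, and Nek2 15.9, 18.3 and 17.1 and 2.43, 2.42 and 3.49. The lowest NC library was above the highest RAB6A siRNA library in each of them. The centromere histone Cenpa (5.82 to 12.6 FPKM) and Kif18a (1.44 to 3.13 FPKM) were the 2 members that rose.

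Start regions of mitosis genes were searched for a sequence that the choice of the list did not use. The element TTTGAA (the CHR element of genes expressed in G2 and mitosis), read on both strands within the 250 bases before the start site in RefSeq windows of GRCm38.p6, was present in 20 of 56 mitosis genes with a window (35.7%), in 10.6% of the DNA replication genes, in 14.6% of all DEGs lower, in 27.5% of the interferon-stimulated genes, in 41.7% of the GBP and IRG GTPase genes and in 10.6% of the 8141 protein-coding genes tested that have a window. These 4 stretches belong to mitosis genes that hold it, with the element in capitals (TTCAAA where it lies on the other strand).
Kif11, chr19:37376353-37376378, + strand: gtctccatttTTCAAAattgaggcgc
Ccnb2, chr9:70421706-70421731, - strand: gggactagaaTTTGAAaataagactg
Top2a, chr11:99024197-99024222, - strand: tagataaaggTTCAAAtgaaactagg
Cdc20, chr4:118437346-118437371, - strand: acagttgggtTTTGAAggagccaatg
Their genes had log2 fold changes of -1.97 (the motor Kif11), -1.86 (the cyclin Ccnb2), -1.82 (the topoisomerase Top2a) and -1.81 (the anaphase activator Cdc20). Mitosis genes with the element had a median of -1.33 and those without it -1.30, so that the fall was of about the same size in both. The E-box CACGTG, which Myc and its partners can bind, was found in 5 of 71 ribosome biogenesis genes (7.04%), 9.95% of the DEGs lower, 7.69% of the DEGs higher and 8.82% of all. A match describes these windows only and is not a measurement of binding.

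Control genes of G1 moved in both directions. Of 36 genes of G1 cyclins, kinases and inhibitors tested, 18 were higher and 16 lower, with 11 and 8 DEGs. Lower were the cyclins Ccne2 (12.7, 12.3 and 10.2 against 1.401, 1.35 and 1.38), Ccne1 (16.5 to 8.61 FPKM, log2 fold change -0.93, SE 0.06) and Ccnd1 (103 to 57.5 FPKM, log2 fold change -0.84, SE 0.053), the kinase Cdk4 (55.4 to 34.6 FPKM, log2 fold change -0.68, SE 0.053) and the E2F members E2f8 (9.77 to 1.94 FPKM, log2 fold change -2.31, SE 0.18), E2f7 (1.96 to 0.639 FPKM, log2 fold change -1.500, SE 0.18) and E2f1 (13.04 to 8.09 FPKM, log2 fold change -0.68, SE 0.085), as well as the pocket protein Rbl1 (11.4 to 3.18 FPKM, log2 fold change -1.81, SE 0.073). Inhibitors of cyclin-dependent kinases were among the higher genes. Cdkn1b (p27) had 4.65, 4.63 and 4.11 FPKM in NC and 22.9, 21.1 and 19.9 in the RAB6A siRNA libraries, for which limma gave 2.23 on the log2 scale with an SE of 0.079 (adjusted p = 1.24e-06), and Cdkn1a (p21) 119, 111 and 119 and 239, 249 and 275. Cdkn2d (4.304 to 11.96 FPKM, log2 fold change 1.45, SE 0.11), the pocket proteins Rb1 (2.27 to 6.65 FPKM, log2 fold change 1.51, SE 0.077) and Rbl2 (1.36 to 5.01 FPKM, log2 fold change 1.81, SE 0.11) and the growth-arrest gene Gadd45b (26.9 to 76.01 FPKM, log2 fold change 1.49, SE 0.063) rose as well. Mdm2, the ubiquitin ligase and target of p53, went from 71.05, 64.6 and 67.5 to 214, 209.9 and 246 FPKM, and its relative Mdm4 from 5.53 to 24.5, while Trp53, the p53 gene itself, fell from 45.8, 43.4 and 45.8 to 20.8, 21.6 and 24.9. Of 28 BCL2 family and inhibitor of apoptosis genes tested, 12 were higher and 9 lower, with 5 and 3 DEGs. The BH3-only death effectors Bbc3 (Puma) and Pmaip1 (Noxa) rose from 8.69, 8.02 and 7.86 to 80.6, 72.3 and 55.9 FPKM and from 11.7, 9.95 and 8.71 to 54.3, 51.6 and 55.8, with no overlap between groups. The death effector Bak1 (161 to 74.8 FPKM, log2 fold change -1.12, SE 0.14), the inhibitor of apoptosis and mitotic protein Birc5 (10.5 to 3.34 FPKM, log2 fold change -1.63, SE 0.12) and Bid (26.3 to 13.3 FPKM, log2 fold change -0.99, SE 0.073) were lower, and Bcl2 itself, low in these cells, rose (0.575 to 1.92 FPKM, log2 fold change 1.58, SE 0.16).

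Genes of splicing factors and of DEAD and DEAH box helicases were more often lower than higher. Of 58 hnRNP and SR splicing factor genes tested, 8 were higher and 37 lower (13 and 34 after the correction for GC content and length), with 3 and 14 DEGs, with a median of -0.51. Hnrnpm had 54.4, 57.7 and 57.5 FPKM in NC and 11.6, 12.2 and 12.1 in the RAB6A siRNA libraries, and Sfpq 70.3, 69.4 and 66.9 and 15.01, 14.5 and 17.4. The splicing kinases Clk1 (12.1 to 26.8 FPKM, log2 fold change 1.15, SE 0.061) and Clk3 (6.798 to 14.3 FPKM, log2 fold change 1.06, SE 0.066) and Hnrnpa3 (2.86 to 11.2 FPKM, log2 fold change 2.17, SE 0.44) rose. Of the DEAD and DEAH box helicases, 39 of 54 were lower and 9 higher, with a median of -0.65. Ddx3x led them, followed by Dhx37 (9.01 to 2.201 FPKM, log2 fold change -1.99, SE 0.091) and the splicing helicase Ddx46 (48.9 to 14.7 FPKM, log2 fold change -1.73, SE 0.078), and Dhx34 and Ddx50 rose with 1.36 and 1.104. Since the cells carried siRNA, the microRNA and RNA interference machinery was read separately. Of 24 genes of this machinery tested, 10 were higher and 11 lower, with 3 and 3 DEGs. The microprocessor genes Dgcr8 (4.24 to 0.943 FPKM, log2 fold change -2.07, SE 0.14) and Drosha (25.5 to 11.4 FPKM, log2 fold change -1.16, SE 0.077) and the exporter Xpo5 (17.7 to 6.003 FPKM, log2 fold change -1.55, SE 0.063) fell, the Argonaute genes Ago3 (1.95 to 5.61 FPKM, log2 fold change 1.48, SE 0.098) and Ago4 (0.538 to 1.49 FPKM, log2 fold change 1.34, SE 0.20) rose, and Ago2, the slicer, rose from 17.4 to 21.7. Of 55 chromatin regulator genes tested, 13 were higher and 30 lower (16 and 24 after the correction for GC content and length), with 3 and 9 DEGs. Their median was -0.26 as deposited and -0.078 after the correction. The methyltransferase Setd1b (7.49 to 2.14 FPKM, log2 fold change -1.76, SE 0.07) and the DNA methyltransferase Dnmt3a (9.75 to 4.097 FPKM, log2 fold change -1.23, SE 0.085) were the lowest and the deacetylase Hdac5 (4.26 to 18.7 FPKM, log2 fold change 2.097, SE 0.12) the highest. Of the clustered histone genes, 8 of 58 passed the filter, 6 were higher and 0 lower. Hist1h1c (6.97 to 36.4 FPKM, log2 fold change 2.36, SE 0.092) and Hist1h2bc (5.92 to 23.5 FPKM, log2 fold change 1.98, SE 0.15), whose mRNAs can be polyadenylated, were the most abundant. Histone genes that passed only through the group where they are higher had to differ, so the list count is given as a description.

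**Figure D4:**
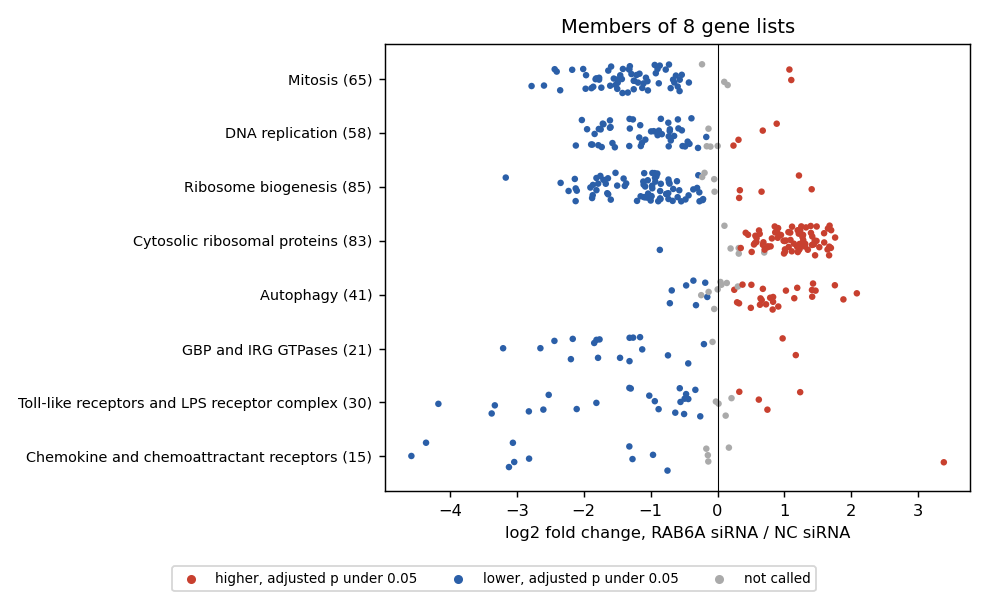
Log2 fold change of RAB6A siRNA over NC siRNA (x axis) for each tested member of 8 gene lists (rows, number of members in parentheses, points jittered vertically). Red and blue members are higher and lower at an adjusted p under 0.05 and grey members are not called. Mitosis, DNA replication and ribosome biogenesis lie mostly below 0, with medians of -1.29, -0.90 and -0.97, and cytosolic ribosomal proteins above 0 with 1.09.

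The receptors that sense microbial products were lower at the level of mRNA. In the list of Toll-like receptors and the LPS receptor complex, 30 members were tested, of which 4 were higher and 22 lower (7 and 19 after the correction for GC content and length), with 11 DEGs lower and a median of -0.56. Tlr13, a sensor of bacterial rRNA, had 12.9, 13.3 and 12.9 FPKM in NC and 0.524, 0.602 and 0.78 in the RAB6A siRNA libraries, and Tlr7, a sensor of single-stranded RNA, 43.2, 42.2 and 38.3 and 3.65, 3.41 and 5.17. Tlr9, which binds CpG DNA (23.4 to 3.26 FPKM, log2 fold change -2.82, SE 0.14), and Tlr3, which binds double-stranded RNA (9.71 to 1.62 FPKM, log2 fold change -2.52, SE 0.12), followed. Among the surface receptors, Tlr2 of the lipopeptide complex was at 72.9, 77.1 and 75.96 and 12.9, 10.6 and 13.7, its partners Tlr1 and Tlr6 fell by 1.81 and 2.11 on the log2 scale, and the Tlr4 inhibitor Cd180 fell from 136, 138 and 131 to 12.5, 11.9 and 14.6 FPKM. The LPS receptor itself differed less. Tlr4 went from 2.04 to 1.41 FPKM (log2 fold change -0.50) and its cofactor Ly96 from 14.9 to 8.04 (log2 fold change -0.88), whereas Cd14 was at 1621, 1620 and 1795 and 2107, 1928 and 1795 and was not called. Of the adaptors and kinases, Myd88 (21.96 to 8.75 FPKM, log2 fold change -1.32, SE 0.063) and the inhibitory Irak3 (21.6 to 8.75 FPKM, log2 fold change -1.297, SE 0.058) fell, and Irak2 (17.8 to 42.1 FPKM, log2 fold change 1.24, SE 0.057) and the kinase Map3k7 (TAK1, 10.5 to 17.6 FPKM, log2 fold change 0.75, SE 0.079) rose.

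Downstream signalling genes moved in both directions. Of 35 genes of NF-kB and its negative feedback tested, 16 were higher and 12 lower, with 8 and 3 DEGs. The NF-kB regulators Nfkbie (3.502 to 11.3 FPKM, log2 fold change 1.66, SE 0.12) and Bcl3 (21.5 to 52.4 FPKM, log2 fold change 1.28, SE 0.071) rose. The mRNA decay factors Zfp36 (158, 148 and 164 against 417, 425 and 441) and Zfp36l1 (11.4 to 38.2 FPKM, log2 fold change 1.73, SE 0.085) rose as well. The deubiquitinase Tnfaip3 (19.2 to 9.56 FPKM, log2 fold change -0.996, SE 0.052), the RNase Zc3h12a (31.03 to 14.8 FPKM, log2 fold change -1.07, SE 0.076) and the cytokine-signalling inhibitor Socs3 (248 to 126 FPKM, log2 fold change -0.99, SE 0.091) fell. Nfkbia, the classical NF-kB inhibitor, was at 221, 204 and 204 in NC and 213, 190.5 and 190.3 after RAB6A siRNA and was not called. Of MAPK phosphatases and AP-1 genes, 40 members were tested, of which 17 were higher and 17 lower. Jund (6.42 to 21.8 FPKM, log2 fold change 1.72, SE 0.18), Jun (25.2 to 56.1 FPKM, log2 fold change 1.16, SE 0.063) and the phosphatases Dusp14 (4.497 to 16.4 FPKM, log2 fold change 1.84, SE 0.13) and Dusp1 (10.2, 12.6 and 12.98 against 37.4, 34.3 and 34.8) rose. Fos (15.9 to 7.22 FPKM, log2 fold change -1.13, SE 0.065), the AP-1 repressor Jdp2 (136, 141 and 135 against 24.7, 23.1 and 28.3) and the ERK phosphatase Dusp6 (12.7 to 5.74 FPKM, log2 fold change -1.13, SE 0.077) fell. Of 18 IRF, STAT and JAK genes tested, 5 were higher and 9 lower (8 and 7 after the correction for GC content and length), with 1 and 2 DEGs. Irf4 (1.32 to 0.285 FPKM, log2 fold change -1.900, SE 0.24) and Irf1 (31.4 to 14.7 FPKM, log2 fold change -1.09, SE 0.053) were the DEGs lower and the kinase Jak3 (3.398 to 14.6 FPKM, log2 fold change 2.07, SE 0.11) the DEG higher, and Irf7, the amplifier of the interferon response, went from 139 to 229.

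Secreted mediators did not change as a block. Of 15 chemokine ligands tested, 5 were higher and 7 lower. The monocyte attractant Ccl2 fell from 1978, 2276 and 2174 to 703, 695 and 595 FPKM with its neighbour Ccl12 (log2 fold change -1.19), and the interferon-inducible Cxcl10 from 99.998, 108 and 103 to 49.3, 41.1 and 51.1 and the neutrophil attractant Cxcl2 from 309.7 to 189. Beside Ccl5 and Ccl22, Ccl6 (5.17 to 17.4 FPKM) and Cxcl16 (2.37 to 5.05 FPKM) rose. Ccl3, the most abundant chemokine of these cells, was at 21914, 23029 and 24603 in NC and 24378, 25483 and 26242 and was not called, and Ccl4 was higher at 1544 against 1926 FPKM, a call that was lost in most fits without 1 library and turned to -0.20 on the log2 scale after the correction for GC content and length. Of 27 cytokines tested, 13 were higher and 11 lower. Tnf had 1055, 998 and 1096 FPKM in NC and 624, 659.9 and 692 in the RAB6A siRNA libraries, and Il6 87.01, 106 and 94.3 and 47.3, 47.2 and 54.8, both lower without overlap. The anti-inflammatory Il10 (3.62 to 0.488 FPKM), the growth factors Csf2 (58.3, 56.3 and 57.5 against 12.5, 12.98 and 15.8) and Csf1 (9.21 to 3.41 FPKM), and Il1a (8.11 to 3.09 FPKM) and the receptor antagonist Il1rn (633 to 335 FPKM) fell. The granulocyte factor Csf3 (648, 596 and 609 against 1227, 1276 and 1033), the IL-27 subunits Ebi3 (103 to 211 FPKM) and Il27 (131 to 238 FPKM), the lymphotoxin Lta (20.96 to 51.4 FPKM), the angiogenic Vegfa (12.7 to 26.3 FPKM) and Il11 rose. Nos2, the inducible nitric oxide synthase, was at 333, 319.7 and 368 in NC and 421, 397 and 356 in the RAB6A siRNA libraries and was not called (log2 fold change 0.20, SE 0.087, adjusted p = 0.0665). It was called as higher in the fit over 9 libraries (0.20), without NC library 3 (0.26), without RAB6A siRNA library 3 (0.27) and after the correction for GC content and length (0.41), and as lower after quantile normalization (-0.41 on the log2 scale). In the whole list of arginine and nitric oxide genes, 18 members were tested, of which 7 were higher and 7 lower, with Ass1, which regenerates arginine, the highest (0.162 to 1.4003 FPKM).

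Chemokine and chemoattractant receptors were mostly lower, and TNF superfamily genes moved in both directions. Of 15 chemokine and chemoattractant receptors tested out of 33 in the table, 1 was higher and 10 were lower, with a median of -1.27. C3ar1, the receptor of the anaphylatoxin C3a, fell from 189.6, 177 and 198 to 23.9, 22.04 and 22.5 FPKM. Ccr1, a receptor of Ccl3 and Ccl5, fell from 4.51, 3.56 and 3.29 to 0.0388, 0.149 and 0.0216, and the formyl peptide receptors Fpr2 (2.33 to 0.177 FPKM) and Fpr1 (1.03 to 0.0682 FPKM) fell as well. Hcar2, a receptor of niacin and ketone bodies, went from 77.4 to 30.98 FPKM and C5ar1 from 7.51 to 3.08. Cxcr6 was the receptor that rose (0.28 to 3.604 FPKM). Ccr1, Fpr1, Fpr2 and Xcr1 passed the filter through the NC libraries alone and Cxcr6 through the RAB6A siRNA libraries alone. The directions of these receptors were fixed by the filter, and the count and median of this list rest partly on them. Of 26 cytokine receptor genes tested, 5 were higher and 15 lower (7 and 8 after the correction for GC content and length), with 1 and 3 DEGs. Csf1r, the receptor on which macrophages depend for survival, fell from 79.3, 63.9 and 77.6 to 25.7, 28.05 and 27.2 FPKM, the TNF receptor Tnfrsf1b from 57.3, 58.8 and 64.01 to 24.9, 23.2 and 20.5 and Il17ra by 1.20 on the log2 scale. The interferon receptor subunit Ifnar1 (7.13 to 13.3 FPKM), Il13ra1 (7.48 to 14.8 FPKM) and Acvrl1 (2.64 to 6.63 FPKM) rose. Of 22 TNF superfamily genes tested, 10 were higher (45.5%) and 7 lower (31.8%), with 7 and 2 DEGs and a median of 0.16. The shares over all protein-coding genes were 33.8% and 41.7%. Beside Tnfrsf9, its ligand Tnfsf9 rose from 22.6, 20.9 and 21.7 to 151, 148 and 143 FPKM, and Cd27 and Eda2r by 2.42 and 1.71 on the log2 scale. Of purinergic receptors and ectoenzymes, 12 members were tested, of which 2 were higher and 7 lower, the adenosine receptor Adora3 and the ATP receptor P2ry2 being the lowest (-1.63 and -1.23) and the ectonucleotidase Entpd1 the highest (0.0426 to 1.002 FPKM). Entpd1 passed the filter through the RAB6A siRNA libraries alone.

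Interferon-inducible GTPases were among the lists with the lowest medians. They coat and disrupt vacuoles that hold pathogens. Of 21 genes of the GBP and IRG families tested, 2 were higher and 18 lower, with 1 and 15 DEGs, with a median of -1.32. Gbp2b had 165, 168 and 144 FPKM in NC and 44.3, 41.4 and 46.9 in the RAB6A siRNA libraries, Irgm1 92.1, 90.8 and 90.1 and 26.5, 25.6 and 25.6, and Irgm2 46.3, 44.9 and 47.7 and 8.57, 7.85 and 9.001, and none of these overlapped. Gbp9 (log2 fold change -0.44) and Gbp2 (log2 fold change -0.74) fell to a lesser extent, and Gbp8 and Gm4841, both near 1 FPKM, rose. Several of these genes are close copies of each other, so reads may have been split between them. In the wider list of interferon-stimulated genes, 84 members were tested, of which 20 were higher and 45 lower, with 6 DEGs higher, 21 lower and a median of -0.40. Cd69 (9.14 to 0.833 FPKM, log2 fold change -3.33, SE 0.16), Slfn9 (22.6, 22.9 and 19.7 against 2.11, 2.32 and 3.03) and Ifit1 (39.996, 37.98 and 38.2 against 5.68, 5.19 and 6.45) were among the lowest, and Ifi205 (0.426 to 3.25 FPKM, log2 fold change 2.68, SE 0.16), Phf11a and Phf11b (15.9 to 65.96 FPKM, log2 fold change 2.04, SE 0.081) the highest. The restriction factor Bst2 rose from 224, 218 and 243 to 480.3, 516 and 360.2 FPKM and Ifitm2 from 113 to 228. Among nucleic acid sensors, 23 members were tested, of which 5 were higher and 15 lower. The RNA-activated kinase Eif2ak2 (51.2 to 18.6 FPKM, log2 fold change -1.45, SE 0.092), the DNA sensor Cgas (20.2 to 7.61 FPKM, log2 fold change -1.397, SE 0.08) and the RNA sensors Ifih1 (28.9 to 14.1 FPKM, log2 fold change -1.03, SE 0.078) and Ddx58 (35.7 to 20.7 FPKM, log2 fold change -0.79, SE 0.06) fell, and the DNA sensor Aim2 (41.4 to 79.1 FPKM, log2 fold change 0.93, SE 0.089) rose. Ifnb1, the interferon gene itself, was low at 0.443 and 0.947 FPKM and was not called.

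Most GTPase genes with a window carry the letters of an interferon-stimulated response element, and they are shown because the genes with the element did not move alike. TTTC, any 2 bases and TTTC again, read on both strands in the 250 bases before the start, was found in 10 of 12 of them with a window (83.3%), in 25 of 69 interferon-stimulated genes (36.2%), in 4.34% of the DEGs lower, 3.85% of the DEGs higher and 2.96% of all protein-coding genes with a window. The stretches of 4 GTPase genes with low fold changes are printed with the element in capitals, in the direction of the gene, from RefSeq on GRCm38.p6.
Tgtp2, chr11:49064263-49064292, - strand: tccaggaatcGAAACCGAAAcctactctga
Gbp2b, chr3:142594700-142594729, + strand: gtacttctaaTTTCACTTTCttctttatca
Irgm1, chr11:48871425-48871454, - strand: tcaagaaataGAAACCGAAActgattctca
Gbp7, chr3:142530273-142530302, + strand: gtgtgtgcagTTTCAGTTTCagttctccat
These genes had log2 fold changes of -3.21, -1.84, -1.81 and -1.31. The interferon-stimulated genes with the element had a median of -0.0444 and those without it -0.486. The GTPase genes with the element had a median of -1.56 and the few without it -1.81, so that the fall was not larger with the element in either list. Neither the binding of a factor nor the activity of these regions was measured.

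Genes of macrophage identity and function were divided. Of 35 macrophage transcription factor genes tested, 16 were higher and 13 lower, with 8 and 9 DEGs. Spi1 (PU.1), the master regulator of the lineage, fell from 126, 124 and 141 to 68.1, 63.4 and 57.3 FPKM, Cebpa from 6.78 to 3.295, Cebpd from 32.8, 31.3 and 32.5 to 8.27, 7.78 and 8.05 and Ikzf1 from 27.3 to 9.69. The Nr4a nuclear receptors, which are immediate-early genes, rose together, Nr4a1 from 3.25, 3.43 and 4.39 to 21.7, 21.5 and 24.7, Nr4a2 from 0.826 to 5.22 and Nr4a3 from 0.261 to 1.42, and so did Id1 (2.73 to 14.3 FPKM). Among the 12 macrophage markers, Lyz2, Csf1r, Spi1 and Fcgr1 fell, Tyrobp (209.9 to 413 FPKM) rose, Fcer1g was higher as deposited (419 to 564 FPKM) and lower by quantile normalization (-0.19 on the log2 scale), Ptprc was higher with a call that was lost in several fits without 1 library (18.3 to 20.6 FPKM), and Cd68, Cd14, Itgam and Adgre1 were not called, the last at 56.3 and 56.3. Of 22 scavenger and C-type lectin receptor genes tested, 3 were higher and 16 lower, with 2 and 11 DEGs, with a median of -0.83. Clec5a fell from 101, 106 and 93.4 to 21.6, 24.1 and 24.1, Clec4d from 197, 195 and 198 to 71.4, 82.9 and 75.1 and Colec12 from 46.5 to 11.7, while the efferocytosis receptor Axl rose (1.88 to 7.55 FPKM). Of Fc gamma receptors and their kinases, 26 members were tested, of which 11 were higher and 13 lower. The kinase Syk (17.9 to 8.699 FPKM, log2 fold change -1.03, SE 0.072) fell, and the inhibitory receptors Lilrb4a (111, 112 and 100.1 against 577, 469.7 and 606) and Lilr4b (186 to 771 FPKM), which are close copies, rose. Of NADPH oxidase and Nrf2 targets, 27 members were tested, of which 10 were higher and 10 lower. The oxidase subunits Cybb and Ncf4 were not called as deposited, although without RAB6A siRNA library 3 Cybb was called as lower (-0.33 on the log2 scale) and Ncf4 as higher (0.30). The redox enzymes Txnrd1 (59.2 to 22.1 FPKM, log2 fold change -1.42, SE 0.048) and Gsr (18.6 to 8.01 FPKM, log2 fold change -1.21, SE 0.059) fell, and the lipid peroxidase Gpx4 (27.9 to 56.7 FPKM, log2 fold change 1.01, SE 0.14) rose. Of the complement genes, 10 members were tested, of which 3 were higher and 4 lower (5 and 4 after the correction for GC content and length), C3 among the higher (2.35 to 5.21 FPKM). Of osteoclast genes, 17 members were tested, of which 3 were higher and 8 lower (8 and 7 after the correction for GC content and length), the phosphatase Acp5 falling by 1.99 on the log2 scale.

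Genes of antigen presentation moved in both directions. Of 24 MHC class I presentation genes tested, 11 were higher (45.8%) and 6 lower (25%), with 2 and 2 DEGs. The shares over all protein-coding genes were 33.8% and 41.7%. B2m had 3466, 4044 and 4012 FPKM in NC and 8314, 8040 and 7419 in the RAB6A siRNA libraries, and the heavy chains H2-D1 and H2-K1 rose by 0.92 and 0.61 on the log2 scale, while H2-T24 (109 to 25.2 FPKM) and the trimming peptidase Erap1 (25.3 to 10.8 FPKM) fell. Heavy-chain genes resemble each other closely, and single values are uncertain. Of 17 genes of MHC class II and costimulation tested, 8 were higher (47.1%) and 7 lower (41.2%), with a median of -0.045. The invariant chain Cd74 rose from 59.4, 67.2 and 73.4 to 222, 238 and 232, Vsir from 8.11 to 25.1 and Cd86 from 12.5 to 24.2, and Slamf7 (16.6 to 5.07 FPKM) and Cd48 (1.38 to 0.14 FPKM) fell. Of inflammasome and lytic death genes, 21 members were tested, of which 6 were higher and 9 lower. Nlrp3 fell from 65.9, 64.4 and 67.4 to 7.51, 7.54 and 9.19 FPKM and the kinase Ripk1 from 10.6, 11.7 and 10.5 to 2.49, 2.68 and 3.11, and the pore protein Gsdmd rose from 29.04 to 42.99, while Casp1 was at 23.1 and 23.2.

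Nuclear genes of mitochondrial respiration were more often higher than lower, and mitochondrially encoded genes moved in both directions. Of 78 nuclear genes of the respiratory chain tested, 47 were higher and 9 lower (39 and 16 after the correction for GC content and length and 57 and 5 after quantile normalization), with 8 and 0 DEGs, with a median of 0.46 (0.19 after the correction for GC content and length). Higher were small subunits such as Ndufv3 (6.83 to 28.3 FPKM, log2 fold change 2.03, SE 0.12), Atp5e (7.39 to 19.7 FPKM, log2 fold change 1.39, SE 0.11) and Ndufa2 (32.4 to 78.3 FPKM, log2 fold change 1.25, SE 0.15), and Cox6a2 (1.84, 1.19 and 1.11 against 51.7, 38.1 and 22.7), the muscle form of a cytochrome oxidase subunit. Lower were large catalytic subunits, Ndufs1 (8.95 to 6.05 FPKM, log2 fold change -0.56, SE 0.076), Atp5a1 (272 to 186 FPKM, log2 fold change -0.55, SE 0.067) and Sdha (35.3 to 24.997 FPKM, log2 fold change -0.50, SE 0.067). Of the 13 mitochondrially encoded genes, 4 were higher and 6 lower (1 and 10 after the correction for GC content and length), with medians of -0.73 as deposited and -1.34 after the correction. mt-Nd1 had 18581, 22539 and 19507 FPKM in NC and 2515, 2314 and 2894 in the RAB6A siRNA libraries, mt-Cytb 14133, 18254 and 16669 and 4188, 3772 and 4961, and mt-Co1 22630, 24782 and 22231 and 61560, 54675 and 59864, so that genes read from the same strand moved in opposite directions, although mt-Co1 was no longer called after quantile normalization or with no filter on low values. All mitochondrial genes together held 9.101 to 10.7% of reads in NC and 10.3 to 11.6% after RAB6A siRNA, and mt-Co1 alone 3.49 to 3.88% and 8.62 to 9.74%. Of the mitochondrial ribosomal proteins, 77 members were tested, of which 28 were higher and 23 lower.

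Of 42 glycolysis and pentose phosphate genes tested, 19 were higher and 13 lower, with 5 and 4 DEGs. Enolase 2 (Eno2) had 6.88, 6.56 and 7.43 FPKM in NC and 50.2, 42.8 and 40.8 in the RAB6A siRNA libraries, and aldolases Aldoc (18.5 to 48.2 FPKM, log2 fold change 1.37, SE 0.058) and Aldoa (194 to 406 FPKM, log2 fold change 1.07, SE 0.07) and the glucose transporter Slc2a1 (111 to 181 FPKM, log2 fold change 0.71, SE 0.085) rose as well. Hexokinase 2 (Hk2) fell from 36.03, 31.7 and 33.7 to 9.68, 10.3 and 10.1 FPKM, the lactate transporter Slc16a1 from 43.5, 43.6 and 40.3 to 9.24, 10.2 and 11.4 and the phosphogluconate dehydrogenase Pgd from 55.9 to 23.7. In the list of citrate cycle, itaconate and anaplerosis genes, 38 members were tested, of which 7 were higher and 20 lower (15 and 12 after the correction for GC content and length), with 1 DEG lower, Acod1, and 1 higher, the citrate carrier Slc25a1 (18.8 to 47.3 FPKM, log2 fold change 1.33, SE 0.065). Of 43 genes of cholesterol and fatty acid synthesis tested, 19 were higher and 16 lower, with 2 and 5 DEGs. The fatty acid synthase Fasn fell from 31.7, 27.5 and 30.96 to 6.83, 7.004 and 5.605, and the acetyl-CoA synthetase Acss2 (0.552 to 2.34 FPKM, log2 fold change 1.902, SE 0.14) rose. Of LXR targets and lipid mediators, 29 members were tested, of which 13 were higher and 8 lower. The oxysterol receptor Nr1h3 (2.98 to 0.725 FPKM, log2 fold change -1.902, SE 0.13) and the lipid droplet coat Plin2 (102 to 37.5 FPKM, log2 fold change -1.44, SE 0.11) fell, and the prostaglandin synthase Ptgs2 (494, 468 and 513 against 720.5, 751 and 896) and the 5-lipoxygenase Alox5 (8.03 to 15.3 FPKM, log2 fold change 0.92, SE 0.10) rose.

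Autophagy genes were higher more often than the background. Of 41 autophagy genes tested, 26 were higher and 7 lower (30 and 4 after the correction for GC content and length), with 10 and 0 DEGs, 63.4% higher against 33.8% of protein-coding genes, with a median of 0.51. The initiating kinase Ulk1 had 2.4004, 2.13 and 2.38 FPKM in NC and 8.75, 8.63 and 8.86 in the RAB6A siRNA libraries, the lysosomal regulator Tfeb 0.95, 0.965 and 1.01 and 4.004, 3.501 and 3.13, and the mitophagy receptor Bnip3l 7.59, 7.55 and 6.33 and 18.4, 19.1 and 20.6. Wipi1 (0.266 to 1.44 FPKM), Map1lc3b (4.09 to 9.19 FPKM) and Vmp1 (19.9 to 53.2 FPKM) rose, and Atg3 (28.8 to 17.6 FPKM) and the lipid kinase Pik3c3 (6.42 to 3.97 FPKM) fell. The receptor Sqstm1 was at 329 and 300.3 and was not called. Lysosomal genes were mixed. Of 67 genes of lysosomal enzymes and the proton pump tested, 21 were higher and 28 lower (30 and 24 after the correction for GC content and length), with 2 and 5 DEGs, cathepsins Ctse and Ctsk being the lowest (-1.38 and -1.29) and Naglu and Arsa the highest (1.46 and 1.05). Of 49 genes of the unfolded protein and integrated stress responses tested, 17 were higher and 22 lower (22 and 20 after the correction for GC content and length), with 7 and 5 DEGs. Ddit3 (CHOP) rose from 15.2, 15.7 and 16.7 to 57.3, 65.99 and 67.1 and the ER chaperone Hspa5 from 257, 268 and 257 to 519, 536 and 561, while Atf5 (24.4 to 5.49 FPKM), Chac1 (12.1 to 3.09 FPKM) and Herpud1 (45.3 to 13.9 FPKM) fell, so that members of the same response moved in both directions. Of cytosolic and mitochondrial chaperones, 43 members were tested, of which 12 were higher and 19 lower (17 and 16 after the correction for GC content and length). The mitochondrial Hspd1 (316, 310.4 and 289 against 94.7, 109 and 118) and Hspa9 (269 to 108 FPKM) were the lowest, and the inducible Hspa1b (1.36 to 8.59 FPKM) the highest. Of the proteasome genes, 50 members were tested, of which 15 were higher and 21 lower, with 2 DEGs, Psme3 and Psmd7, lower. Of the iron genes, 23 members were tested, of which 12 were higher and 8 lower. The siderophore-binding Lcn2 rose from 16.7, 21.3 and 21.4 to 101, 110.02 and 83.9 FPKM, the ferritin light chain Ftl1 from 196, 169 and 176 to 567, 589 and 441 and the mitochondrial iron importer Slc25a37 from 22.2 to 69.9, while the transferrin receptor Tfrc fell from 73.4, 66.9 and 61.7 to 18.6, 20.4 and 22.3.

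Among secreted and surface proteins, coagulation genes were mostly higher. Of 16 genes of coagulation, plasminogen activation and matrix proteolysis tested, 12 were higher and 3 lower, with 8 and 2 DEGs, with a median of 1.02. Beside Procr, the metalloproteinase Mmp19 (0.848 to 5.95 FPKM) and the serpin Serpinb6b (17.9, 19.2 and 16.9 against 69.7, 74.6 and 75.5) rose. The urokinase receptor Plaur fell from 107, 97.3 and 112 to 38.4, 37.9 and 30.9 FPKM, and urokinase itself, Plau, from 484 to 364. Of 21 annexin, S100 and galectin genes tested, 12 were higher and 6 lower, with 5 and 1 DEGs, with a median of 0.66. Anxa6 (6.68 to 26.4 FPKM), S100a11 (560.5, 669 and 695 against 1339, 1183 and 1435) and Lgals1 (342 to 657 FPKM) rose, and Anxa5 fell from 964, 954 and 1020 to 486, 511 and 503. Of integrins and tetraspanins, 25 members were tested, of which 11 were higher and 6 lower. The fibronectin receptor Itga5 (59.9 to 35.8 FPKM, log2 fold change -0.75, SE 0.07) fell and the leukocyte integrin chain Itgb2 (90.9 to 130.05 FPKM, log2 fold change 0.52, SE 0.058) rose. Of circadian clock genes, 15 members were tested, of which 10 were higher and 2 lower, with a median of 0.51. The repressors Nr1d1 (9.69, 8.899 and 11.1 against 27.96, 30.9 and 32.1) and Per1 (14.2, 14.9 and 16.7 against 37.1, 34.8 and 43.3) rose, Cry1 (6.79 to 4.32 FPKM) fell and Arntl (BMAL1) was at 6.41 and 5.84. Of core Wnt genes, 20 members were tested, of which 7 were higher and 7 lower. Beta-catenin, Ctnnb1, fell from 49.8, 47.1 and 49.2 to 26.1, 26.8 and 23.9, and the acyltransferase Porcn (0.273 to 1.27 FPKM) and the receptors Fzd5 (2.32 to 6.59 FPKM) and Fzd7 (0.439 to 1.44 FPKM) rose.

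**Figure D5:**
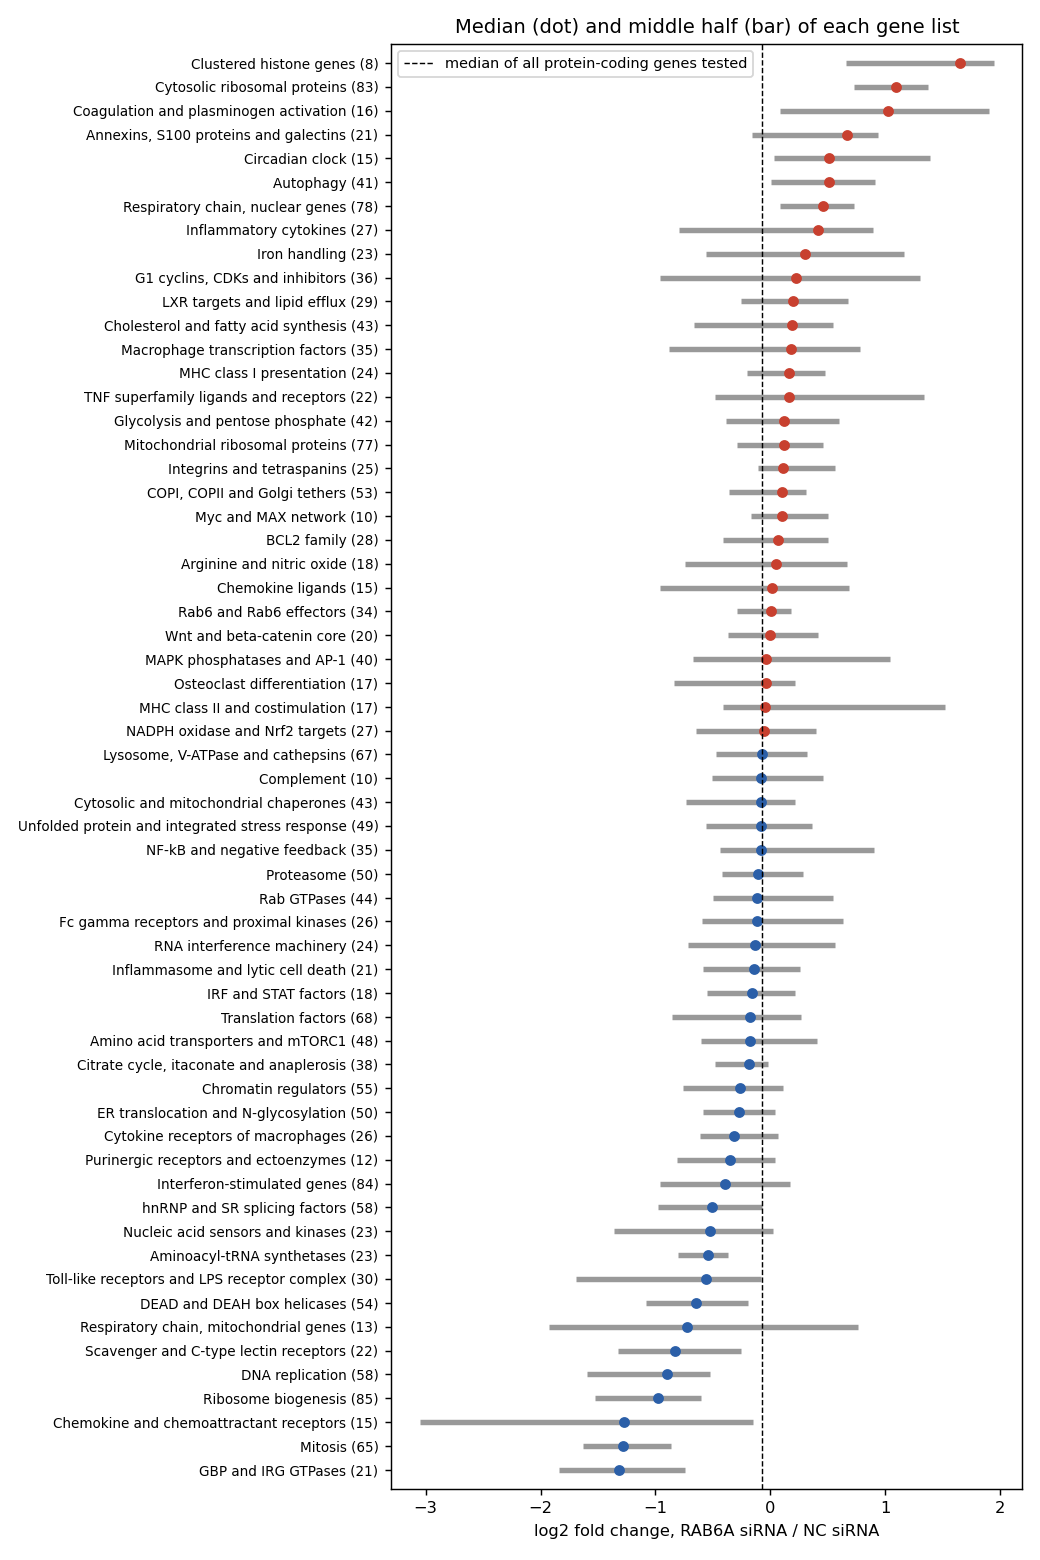
Median (dot) and interquartile range (bar) of the log2 fold change of RAB6A siRNA over NC siRNA (x axis) for the tested members of 60 gene lists, sorted, with the number of members in parentheses. The dashed line marks the median of all protein-coding genes tested, -0.069, and red and blue dots lie above and below it. GBP and IRG GTPases lie lowest at -1.32 and clustered histone genes highest at 1.65. Only 8 of 58 clustered histone genes passed the filter. After the correction for GC content and length their median was 0.94, below that of cytosolic ribosomal proteins at 0.99.

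DEGs also differed in gene structure. The median coding length was 1107 bases for DEGs higher, 1488 for DEGs lower and 1374 for the other protein-coding genes, and the median GC content of the longest transcript 52.6%, 48.5% and 49.3%. In the quartile of genes with the shortest coding sequence, 16.4% were DEGs higher and 9.95% DEGs lower, and in the quartile with the longest, 7.26% and 15.3%. In the quartile of highest GC content the shares were 17.5% and 10.1%, and in that of lowest GC content 7.604% and 14.3%. Across the 10150 genes Spearman's rho with the log2 fold change was 0.137 for GC content and -0.148 for coding length, as a description over genes that share libraries. Genes with a single exon made up 3.72% of DEGs higher, 2.95% of DEGs lower and 1.23% of the others. On the autosomes the share of DEGs lower ranged from 9.51% on chromosome 14 to 16.75% on chromosome 4, and that of DEGs higher from 7.77% on chromosome 5 to 15.0% on chromosome 7, where Rab6a lies. The part of RNA quality in these values was not tested.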

How the data were processed

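RNA-seq libraries of LPS-treated RAW264.7 cells were analysed, 3 each for NC, SFRP2 and RAB6A siRNA. The authors deposited FPKM values per Ensembl gene, without read counts. HISAT2, Subread and featureCounts are named in the submitters' processing notes. The strand setting and the build and annotation behind the values are not given in the sources used here. Gene names, biotypes and lengths were taken from GENCODE M21 (GRCm38), which named 27533 of 28137 identifiers. With its exon lengths, 98.4% of the named genes had values within 0.03 of whole reads in all 9 libraries, which gave the depth per library; the number of samples and not depth limits the precision of well-expressed genes.

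Genes that reached 0.5 FPKM on average in the 6 libraries compared were tested with limma (version 3.58.1, R 4.3.3; eBayes with an intensity trend) on log2(FPKM + 0.1), and p-values were adjusted by the Benjamini-Hochberg method over all 12712 genes tested. DEGs were called by the paper's thresholds (adjusted p below 0.05 and more than 1 on the log2 scale in either direction). The paper's methods name a count model, which is not fitted to FPKM values here; voom on the recovered reads was an alternative. The script was tested on simulated data.

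Gene lists were described by the number of members called and the median, with no set test. The members and lists were chosen with earlier results of these data known. Genes named in the text are Rab6a and its list, the 20 largest increases and decreases among DEGs whose groups do not overlap and whose higher group has a mean FPKM of at least 10, the 10 largest increases and decreases in FPKM, up to 3 highest and lowest called members of each list, and list members chosen by role. Partners of overlapping genes (Polk, Nudt5, Camta1, Itgad, Blcap, Mast4, Mpp1, Olfr56 and Ints8) were added after their values were seen. Mrpl48 and Gm14382, which overlap Rab6a, were added in the same way and were not followed under the alternatives. Some genes these rules name are not reported here. Motifs were searched as exact letters on both strands of RefSeq windows (GRCm38.p6), which 8141 of the 10150 protein-coding genes had. Alternatives were other pseudocounts, filters and scalings, a correction for GC content and exon length by splines with 5 degrees of freedom, a replicate block, a fit over 9 libraries, each library left out in turn, adjustment over protein-coding genes alone, and voom on recovered reads. Replicate pairs differed by more than counting noise (chi-square per degree of freedom 12.8 to 22.6), so that each library was counted as 1 sample.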

Additional observations from a re-analysis of the deposited data

How the results depend on the processing

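Of 141 values of the main results under the alternatives, 133 stayed within set limits. Counts had to lie within 1.5 times the main count, and medians within 0.1 on the log2 scale. The share of DEGs that were higher had to lie in its exact binomial confidence interval. Rab6a had to keep its direction and an adjusted p under 0.05. With a pseudocount of 1 the DEGs fell from 3829 to 2389 over all genes, from 2489 to 1587 over protein-coding genes, and against SFRP2 siRNA from 3972 to 2501. The share of protein-coding DEGs that were higher was 44.2% as deposited, 46.7% with no filter on low values, 37.2% after quantile normalization and 54.7% after the correction for GC content and length. Rab6a turned to 0.018 (adjusted p = 0.793) under the last and stayed between -0.34 and -0.26 when a library was left out. The number of protein-coding DEGs ranged from 2396 to 2609 when a library was left out. Voom on recovered reads, which was planned, gave 2576 protein-coding DEGs, and with median-of-ratios scaling, chosen after seeing the data, 2569.

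Of the list medians, 1034 of 1140 values moved by less than the limit and 0 reversed by the rule used, although 17 medians close to 0 changed sign under some scaling. Of genes named in the text, 5 turned under the correction for GC content and length, Adgre1 to 0.30, Casp1 to -0.15, Ccl4 to -0.20, Golga4 to 0.17 and Nudt5 to 0.25 on the log2 scale, and 2 under quantile normalization, Fcer1g to -0.19 and Nos2 to -0.41. The cause was not tested. Spp1, Fth1, Eef1a1, Ccl4, mt-Co1 and mt-Nd5 were no longer called with no filter on low values, Tlr4, Gbp9 and Fcer1g after the correction for GC content and length, and Mlx, Ptgs2, Camta1, mt-Co1 and mt-Nd5 after quantile normalization, and Ptprc in a fit without a trend of the variance on the mean level. When a library was left out, Ccl4 ranged from 0.26 to 0.42 on the log2 scale and was called only without RAB6A siRNA library 3, and Ptprc ranged from 0.14 to 0.21 and was called only without RAB6A siRNA library 2. Among the other genes followed under the alternatives, none lost its call in these fits. Other named genes gained a call. After the correction for GC content and length these were Bicd2, Gcc1, Gcc2, Golga5, Ints8, Itgam, Mycn, Nos2 and Odc1 as higher and Cd68 and Nfkbia as lower, and after quantile normalization Bicd2, Cd14, Golga5 and Ncf4 as higher and Cybb, Nfkbia and Sqstm1 as lower. On recovered reads Cd14, Cybb and Ncf4 were called, and Ncf4 also with a pseudocount of 1, median-of-ratios scaling, a mean FPKM of at least 1, the fit over 9 libraries and adjustment over protein-coding genes alone. Without RAB6A siRNA library 3, Cd14, Cybb, Ncf4 and Nos2 were called, without NC library 3 Nos2, and without RAB6A siRNA library 1 or with the replicate block Ifnb1.

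Replicate numbers did not pair the libraries, since the deviations of libraries with the same number had correlations of -0.0146, 0.0289 and -0.00469. With the replicate number as a block there were 3852 DEGs over all genes, 2490 over protein-coding genes and 3993 against SFRP2 siRNA, and Rab6a had -0.31. Ccl4 and Ptprc lost their call with the block and no other gene followed under the alternatives did.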

Other observations

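Among genes that are not protein-coding, increases outnumbered decreases in most classes. Of 252 genes of the class TEC (loci still to be experimentally examined) that were tested, 176 were DEGs higher and 19 lower, with a median log2 fold change of 2.01. Of 327 antisense genes 168 were DEGs higher and 26 lower (median 1.11), and of 49 sense intronic genes 39 and 1 (median 1.90). The summed share of lincRNA, antisense, TEC and sense intronic genes was 0.656 to 0.722% of reads in NC and 1.28 to 1.47% in the RAB6A siRNA libraries.

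Long intergenic RNAs were nearly balanced, with 65 DEGs higher and 48 lower of 230. Small RNA genes, which poly(A) libraries hold only in part, had 38 DEGs higher and 1 lower of 57 snRNA genes, 53 and 9 of 120 snoRNA genes, and 47 and 8 of 111 miRNA genes. For 910 processed pseudogenes the numbers were 316 and 80. After the correction for GC content and length the medians of miRNA, snoRNA and processed pseudogene loci were 0.12, -0.084 and -0.13, against 1.67, 1.10 and 0.50 as deposited. Reads of these loci can overlap with those of host, sense or parent genes, and the strand setting is not given in the sources used here.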
